A study of Mus musculus with 12 samples.

Results

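The nucleosome remodelling and deacetylase complex, NuRD, was followed in mouse blastocysts through 10 of its subunit genes: Chd4, Mta1, Mta2, Mta3, Hdac1, Hdac2, Mbd3, Rbbp4, Rbbp7 and Gatad2a. Chd4 had been selected on its increase in Ca-free medium over control on these same arrays, and its 9 partners were chosen by membership of the complex. Every probe set paired with exactly 1 of the 10 genes was taken, which gave 25 of the 45037 probe sets on the array and 10 of the 18193 genes with a probe set of their own. A mean signal of at least 100 was reached by 23 of the 25, which held all 10 genes, and those 23 were tested. Because Chd4 was picked for its change, its values are given as a description without a test, and because the other comparisons share arrays with the one that picked it, the same holds for Chd4 in all of them. The question put to the data is whether the partners moved with Chd4.

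NuRD joins ATP-driven nucleosome remodelling and histone deacetylation in a single complex. Chd4 is its usual ATPase, Hdac1 and Hdac2 are its deacetylases, the Mta proteins and the histone-binding proteins Rbbp4 and Rbbp7 build the deacetylase module, Mbd3 is its methyl-CpG-binding-domain subunit, and Gatad2a links Mbd3 to Chd4. In early mouse embryos and embryonic stem cells the complex is known for its part in the exit from pluripotency and in setting up the first lineages.

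The study placed RNA of blastocysts on 12 arrays in 3 groups of 4, which the labels name as cultured in Ca-free medium, treated by 20 pulses, and control. Its title concerns the Ca2+ oscillations of the fertilised egg. The sources used here do not give the strain, the embryos per array, what a pulse was, at which stage embryos were treated or how long they stayed in Ca-free medium. Whether replicates are separate collections is likewise unstated, so p-values reflect no more than the spread among these arrays. Signals are linear MAS5 intensities, rescaled so that every array has a trimmed mean of 500, and changes are log2 ratios after adding 32, given as estimate ± SE. The number of arrays limits the precision. In whole embryos, fewer cells of a type and less RNA per cell cannot be told apart.

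The arrays carried the transcripts of a blastocyst. The summed signal of 6 trophectoderm markers was 38861 to 40088 in Ca-free medium, 37126 to 39663 after 20 pulses and 39114 to 41747 in control. The 4 markers of the inner cell mass summed to 15115 to 19632 in Ca-free medium, 16104 to 17943 after 20 pulses and 16122 to 18622 in control, and the 4 of the primitive endoderm to 5503 to 7048, 6699 to 7261 and 5715 to 6468 in the same order. Markers of other cells were dim but moved with the groups: 5 oviduct and uterine markers summed to 607 to 792 in Ca-free medium, 927 to 1188 after 20 pulses and 1180 to 1348 in control, 4 of 5 listed cumulus and granulosa markers to 219 to 365, 392 to 634 and 595 to 798, and 3 of 4 listed blood markers to 383 to 440, 566 to 624 and 506 to 649. All 17560 tested probe sets with a mean signal under 500, as these markers had, showed a median log2 change of -0.34 in Ca-free medium over control. Whether the sums fell beyond that shift of dim probe sets was not tested. The 5 oocyte markers summed to 1316 to 1837 in Ca-free medium, 1131 to 1471 after 20 pulses and 1390 to 1739 in control. None of these markers was listed at 0, though the oocyte gene H1foo, the granulosa genes Amh and Fshr and the blood gene Ptprc stayed under a mean of 100, and the part of such cells in the results was not tested. RNA quality differed too: the mean log2 ratio of 3′ to 5′ signal of Actb and Gapdh was 1.39 ± 0.22 in Ca-free medium, against 1.94 ± 0.34 in control (SD over 4 arrays; p = 0.0286 by an exact two-sided permutation test, the smallest that 70 arrangements allow), and 1.65 ± 0.13 after 20 pulses (exact two-sided permutation p = 0.2 against control). The 2 transcripts differed in this. Control arrays 3 and 4 had Actb ratios of 2.69 and 2.64, against 1.59 and 1.67 on control arrays 1 and 2. On the Ca-free arrays the Actb ratio was 1.69 to 1.88, between those control pairs. Their Gapdh ratio, at 2.89 to 5.05, lay below every control array, at 5.76 to 8.90.

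Chd4, the remodelling ATPase, was high in Ca-free medium on 2 of its 3 probe sets. Probe set 1438476_a_at had signals of 464, 392, 395 and 375 on the 4 Ca-free arrays, 330.1, 83.3, 304 and 192 after 20 pulses, and 56.1, 50.04, 43.9 and 61.5 on the control arrays. The 3 groups did not overlap, with the 20 pulses arrays in between and the most scattered of the 3. Its mean was 406 ± 39.2 in Ca-free medium, 227 ± 113 after 20 pulses and 52.9 ± 7.62 in control (SD, n = 4 each). The log2 change was 2.37 ± 0.27 in Ca-free medium over control and 1.48 ± 0.27 after 20 pulses over control, ranks 1 and 7 of the 27808 probe sets tested. The probe set reached the minimum of 100 through both treated groups, while its control signals lay under it. Whether the control signal stood above background was not tested, so the size of these 2 changes is uncertain. Between Ca-free medium and 20 pulses the difference was 0.89 ± 0.27.

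A second Chd4 probe set, 1436343_at, gave the same order at a higher signal. It read 1002, 1169, 1080.3 and 1036 in Ca-free medium, 900.2, 827, 917 and 899 after 20 pulses, and 620 to 631 on control arrays 1 and 2 with 412 and 407 on control arrays 3 and 4. Again no array of a group reached into the next group. The log2 change was 1.03 ± 0.13 in Ca-free medium over control, rank 90, and 0.77 ± 0.13 after 20 pulses over control, rank 202. The drop between the control pairs runs with their Actb 3′ to 5′ ratio: against control arrays 1 and 2 alone the change in Ca-free medium was 0.75, and against control arrays 3 and 4 alone it was 1.32. For 20 pulses these values were 0.48 and 1.05, whereas the change of 1438476_a_at in Ca-free medium was 2.36 and 2.38.

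The third Chd4 probe set, 1451295_a_at, did not separate the groups. It read 520 to 566 on Ca-free arrays 1 and 4 and 448 to 499 on Ca-free arrays 2 and 3, 421 to 633 after 20 pulses, and 435 to 596 in control, all overlapping. Its log2 change was -0.03 ± 0.13 in Ca-free medium and -0.01 ± 0.13 after 20 pulses over control, with 95% intervals of -0.30 to 0.24 and -0.28 to 0.26. Both this probe set and 1438476_a_at carry the suffix _a_at, which the manufacturer uses for probes shared by alternate transcripts of a single gene. The probes' positions are not used here, so which Chd4 transcripts each probe set reads was not tested.

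**Figure D1:**
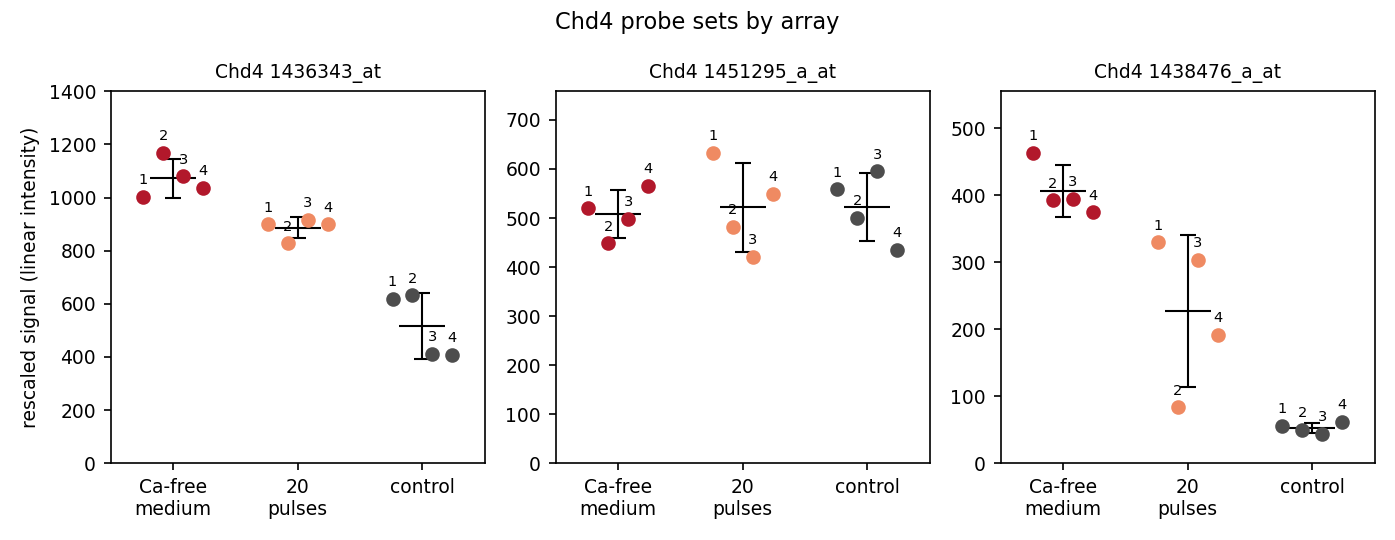
Rescaled linear signal of the 3 Chd4 probe sets on each array, numbered by replicate, with Ca-free medium, 20 pulses and control from left to right and bars for mean ± SD. The groups are apart on 1436343_at and 1438476_a_at, and overlap between 421 and 633 on 1451295_a_at.

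The start region of Chd4 is printed because Chd4 is the member with the largest change, and that of Hdac2 because the probe sets of this partner moved in opposite directions in Ca-free medium. Both come from RefSeq (GRCm38.p6), run from 250 bases before to 50 bases after an annotated start, and are read 5′ to 3′ on the plus strand, at chr6:125095913-125096212 for Chd4 and chr10:36974294-36974593 for Hdac2. Capitals mark GGGCGG, the GC box bound by Sp1-type factors, and TGACG, the core of the element bound by CREB, a factor known to respond to Ca2+, each on either strand (CCGCCC and CGTCA).
Chd4: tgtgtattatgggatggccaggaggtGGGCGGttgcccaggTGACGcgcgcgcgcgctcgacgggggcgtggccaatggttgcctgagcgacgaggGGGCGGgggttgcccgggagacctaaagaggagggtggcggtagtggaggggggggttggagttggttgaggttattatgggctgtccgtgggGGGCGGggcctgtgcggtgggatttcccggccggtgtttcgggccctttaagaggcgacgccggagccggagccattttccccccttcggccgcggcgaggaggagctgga
Hdac2: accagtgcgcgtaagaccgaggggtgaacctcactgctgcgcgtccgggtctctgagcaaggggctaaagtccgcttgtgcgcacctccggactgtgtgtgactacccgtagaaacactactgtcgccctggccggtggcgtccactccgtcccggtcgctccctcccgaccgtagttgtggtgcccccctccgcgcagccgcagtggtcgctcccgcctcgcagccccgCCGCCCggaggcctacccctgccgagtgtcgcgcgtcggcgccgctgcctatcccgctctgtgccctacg
The Chd4 window held 3 GGGCGG and 1 TGACG, with 29 CG dinucleotides and 68.3% G or C. The Hdac2 window held 1 GGGCGG and 0 TGACG, with 36 CG dinucleotides and 69.7% G or C. RefSeq gives Chd4 a further start 182 bases upstream, whose window shares 118 bases with the printed one and held the same numbers of both motifs, with 17 CG dinucleotides. Windows were found for 8 of the 10 genes, 10 windows in all, and Hdac1 and Mta3 are named only. Every one of the 10 windows held GGGCGG, as did 35.7% of the 32851 mouse windows, and both of Chd4, that of Rbbp7 and 1 of the 2 of Gatad2a held TGACG, as did 20.8% of all. The median mouse window held 7 CG dinucleotides. Also searched on both strands were the CCAAT box, in 37.4% of all windows, the E-box CACGTG, in 7.15%, and the TATA box TATAAA, in 13.6%. The printed Chd4 window held 1 CCAAT and neither of the others, and the Hdac2 window held none of these. In the printed windows no match overlaps a match of another motif, and a match of letters is a description, not a site.

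The calls of the partners of Chd4 went both ways in Ca-free medium, in a split that turned with the scaling. Of the 20 partner probe sets tested, 2 were called higher and 5 lower in Ca-free medium than in control, where 10.6% of all tested probe sets were called higher and 29.7% lower (limma, Benjamini-Hochberg adjusted p under 0.05). The median change of the partners was 0.00 and that of all tested probe sets -0.18. The 2 calls upward were both of Hdac2, at 0.13 and 0.16 on the log2 scale. The 5 calls downward were of Hdac2, Mta3, Mta1 and Gatad2a, between -0.81 and -0.36. With the arrays scaled to equal medians 12 partners were called higher and 1 lower, with scaling to the hybridization controls 0 and 9, and after quantile normalization 1 and 3. All 27808 tested probe sets gave 10234 higher and 1535 lower, 772 and 13655, and 2723 and 2774 in the same order. As the comparison served to pick Chd4, nothing is read from these counts. The Ca-free arrays lay wholly above the control arrays on 1 tested partner probe set and wholly below on 5. The share of all probe sets that did so was not counted, so nothing is read from this either.

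**Figure D2:**
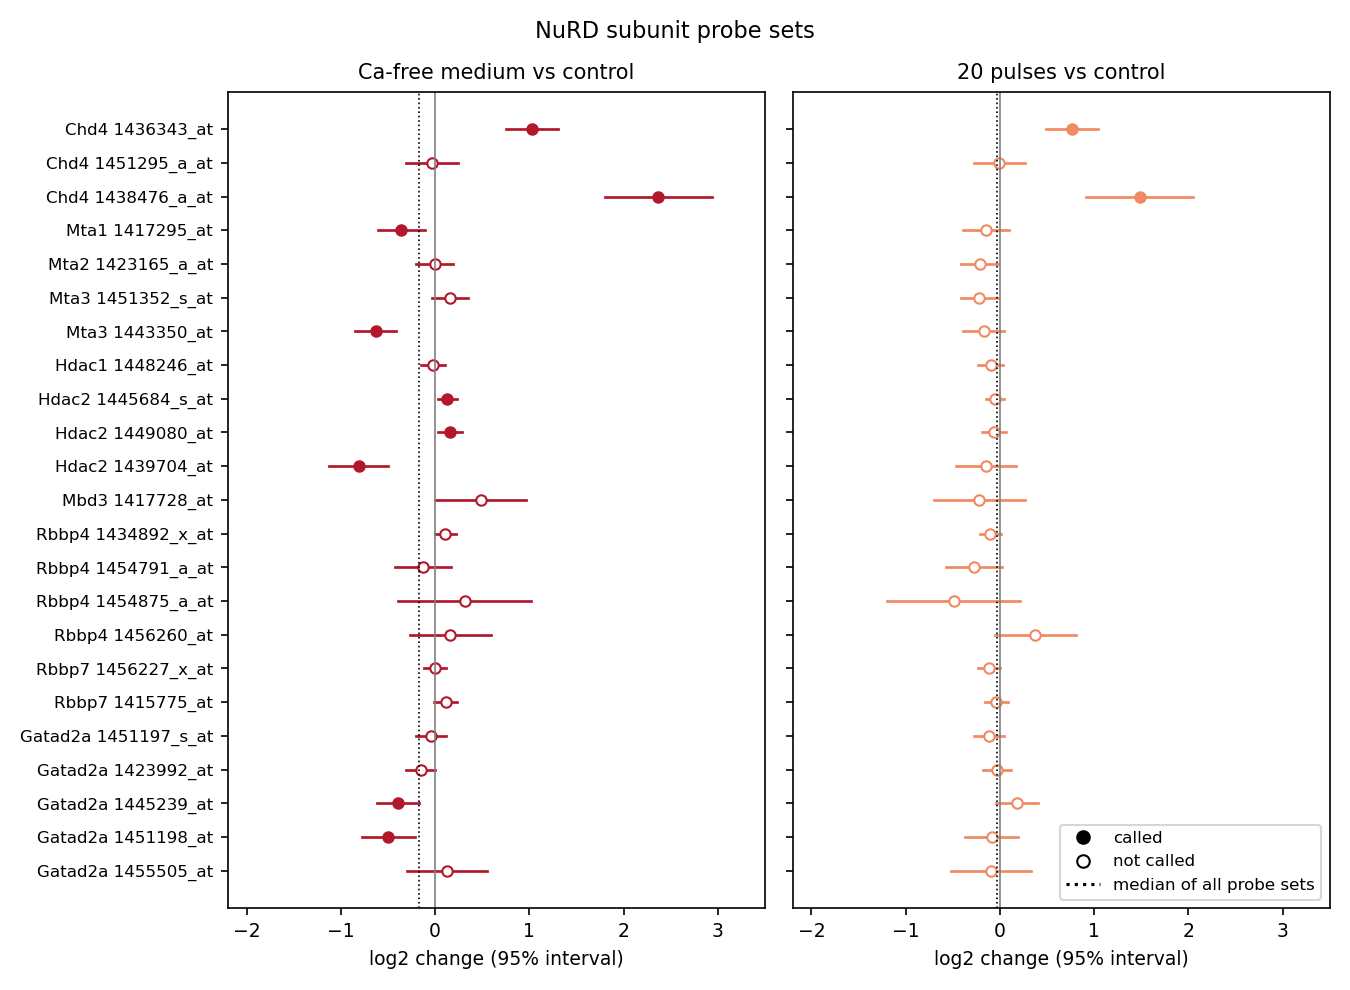
Log2 change with its 95% interval for the 23 tested probe sets, in Ca-free medium over control (left) and 20 pulses over control (right), with filled points for adjusted p under 0.05, for Chd4 as a description only, and a dotted line at the median of all probe sets (-0.18 and -0.03). Chd4 1438476_a_at stands at 2.37 and 1.48, and the highest partner estimate is 0.48, of Mbd3 in Ca-free medium.

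After 20 pulses no partner was called. The calls were 0 of 20 higher and 0 of 20 lower than control by limma, where 1.1% of all probe sets were called higher and 0.374% lower, so a count of 0 is near the background. At an unadjusted p under 0.05, 0 partners were higher and 2 lower, and the smallest adjusted p was 0.251, for Mta3 1451352_s_at at -0.22 ± 0.09. Of the 20 estimates 18 were below zero, with a median of -0.11, beside -0.03 for all tested probe sets. That tally was 14 after quantile normalization, 17 with equal medians and 7 with scaling to the hybridization controls. For 15 of the 20 the 95% interval lay within 0.5 of zero on the log2 scale, so changes of the size of Chd4 on 1436343_at, 0.77, lay outside them. The 20 pulses arrays lay wholly below control on 2 tested partner probe sets, Hdac1 1448246_at and Mta3 1443350_at, and wholly above on 0. The share of all probe sets that did so was not counted, so these counts are a description.

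Between Ca-free medium and 20 pulses, 9 of 20 partner probe sets were called, 5 higher and 4 lower in Ca-free medium, where 9.22% of all probe sets were called higher and 23.4% lower. The partners called were 13 higher and 0 lower with equal medians, 0 and 13 with scaling to the hybridization controls, and 1 and 0 after quantile normalization. All 27808 tested probe sets gave 8751 higher and 985 lower, 94 and 19709, and 1405 and 1384 in the same order. The 5 higher were Mbd3, both bright Hdac2 probe sets, Mta3 1451352_s_at and Rbbp4 1434892_x_at, and the 4 lower were Hdac2 1439704_at, Mta3 1443350_at and 2 of Gatad2a. The partners' median was 0.13 and that of all tested probe sets -0.17. Both treatments share this comparison's arrays with the comparisons above.

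As scaled here, the calls of the partners in Ca-free medium over control were downward on dim probe sets and upward on bright ones. Calls of all probe sets leaned the same way. Quantile normalization did not keep this split. There the 1 partner called higher was dim Mbd3, at 0.80, and the bright Gatad2a 1423992_at was called lower, at -0.23. This split was chosen after the values were seen and carries no test. Of the 8 partner probe sets with a mean signal under 500, 0 were called higher and 5 lower than control, with a median of -0.37, while all 17560 such probe sets gave 3.17% higher, 38.9% lower and a median of -0.34. Of the 12 at or above 500, 2 were called higher and 0 lower, with a median of 0.06, while all 10248 such probe sets gave 23.3% higher, 13.8% lower and a median of 0.06. The medians of the partners were thus near those of all probe sets on each side, but single partners were not always. Of the 8 dim partners 3 had estimates above zero, Mbd3 at 0.48, Rbbp4 1456260_at at 0.16 and Gatad2a 1455505_at at 0.13, and these were the 3 dimmest. Of the 12 bright ones 5 had estimates below zero. Set against the median of all probe sets in their own bin of signal, with 10 equal bins, 12 of the 20 partners were within 0.2 and 8 were not, with differences from the bin median that ran from -0.44 for Hdac2 1439704_at to 0.85 for Mbd3. The median deposited signal, at the same trimmed mean, was 38.3 to 39.2 on the Ca-free arrays, 47.4 to 53.7 after 20 pulses and 49.4 to 53.05 in control. The 2 higher Chd4 probe sets fell in signal bins 4 and 8 of these 10, dimmest first, where all probe sets together had median changes of -0.37 and 0.00.

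**Figure D3:**
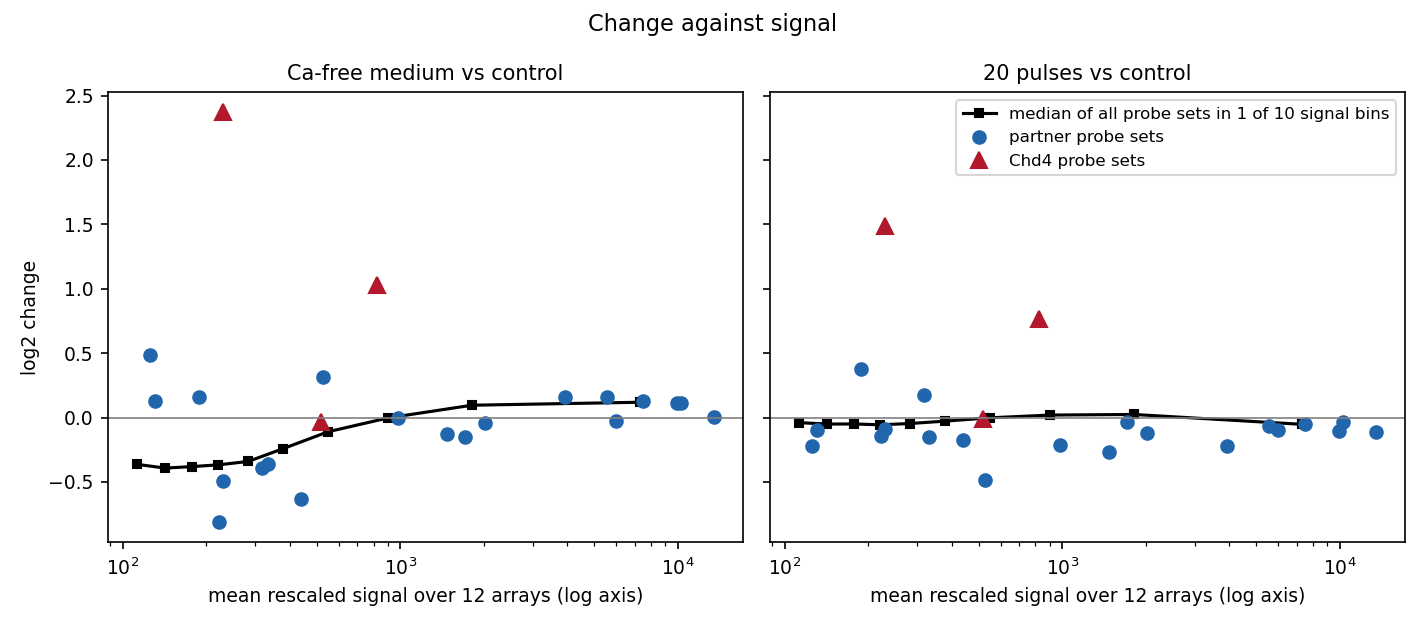
Log2 change over control against mean rescaled signal (log axis) for Chd4 (triangles), partners (circles) and the median of all probe sets in each of 10 equal bins of signal (squares), in Ca-free medium (left) and after 20 pulses (right). In Ca-free medium the line climbs from -0.36 in the dimmest bin to 0.12 in the brightest and 12 of the 20 partners lie within 0.2 of their bin.

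The deacetylases Hdac1 and Hdac2 were little changed on their bright probe sets, while a dim Hdac2 probe set was lower in Ca-free medium. Hdac1 1448246_at read 5700, 6491, 6495 and 5525 in Ca-free medium, 5759, 5800, 5848 and 5538 after 20 pulses, and 5858, 6033, 6179 and 6525 in control. Ca-free and control arrays overlapped, and the 20 pulses arrays lay just under the lowest control array. The change was -0.03 ± 0.06 in Ca-free medium and -0.10 ± 0.06 after 20 pulses (limma adjusted p = 0.453, lower on 4 of 4 arrays, 95% interval -0.23 to 0.03). Hdac2 1445684_s_at read 8341, 7942, 7659 and 8339 in Ca-free medium, 7477, 6995, 7045 and 6946 after 20 pulses, and 7287, 7559, 7143 and 7477 in control. The Ca-free arrays were above all 8 others, by a narrow margin over control array 2.

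The change of Hdac2 1445684_s_at was 0.13 ± 0.05 in Ca-free medium over control, 0.18 ± 0.05 over 20 pulses (limma adjusted p = 0.0104, 4 of 4 arrays), and turned to -0.08 and -0.19 when arrays were scaled to the hybridization controls, the second a call downward (limma adjusted p = 0.0143). Hdac2 1449080_at behaved alike, at 0.16 ± 0.06 over control and 0.22 ± 0.06 over 20 pulses (limma adjusted p = 0.0129, 4 of 4 arrays), with -0.05 and -0.15 under that scaling. Each of these 2 calls over control was kept in 8 of 22 alternatives, and both calls against 20 pulses ended with Ca-free arrays 2 and 3 alone and under quantile normalization, that of 1445684_s_at also with no intensity trend. The scaling sets the zero of such small changes: the median change of all probe sets over control was -0.18 as scaled here, -0.36 with the hybridization controls, 0.19 with equal array medians and -0.02 after quantile normalization. Relative to it, 1445684_s_at over control was at 0.31 as scaled here and at 0.28, 0.35 and 0.05 under the 3 alternatives in that order, while Chd4 1438476_a_at was at 2.54, 2.54, 2.51 and 2.59. Of all calls over control in Ca-free medium 26.3% were upward as scaled here, and 5.35%, 87% and 49.5% under the alternatives. Against 20 pulses the upward share was 28.3%, and 0.475%, 89.9% and 50.4%. For 20 pulses over control it was 74.7%, and 98.3%, 87.7% and 73.7%.

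The dim Hdac2 probe set went the other way. Hdac2 1439704_at read 186, 106, 149 and 137 in Ca-free medium, 258, 204, 290.3 and 231 after 20 pulses, and 274, 300.4, 236 and 287 in control. All Ca-free arrays were below all others, while 20 pulses and control overlapped. The change was -0.81 ± 0.15 in Ca-free medium over control, called in 21 of 21 alternatives, and -0.66 ± 0.15 against 20 pulses (limma adjusted p = 0.00548, lower on 4 of 4 arrays), a call that ended under quantile normalization and median scaling. After 20 pulses over control it was -0.15 ± 0.15 (limma adjusted p = 0.678, 95% interval -0.46 to 0.17). The log2 ratio of Hdac1 over Hdac2, from their brightest probe sets and of use only between arrays since its size depends on the probes, averaged -0.42 ± 0.18 in Ca-free medium, -0.31 ± 0.05 after 20 pulses and -0.26 ± 0.07 in control (SD, n = 4 each), with all groups overlapping.

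**Figure D4:**
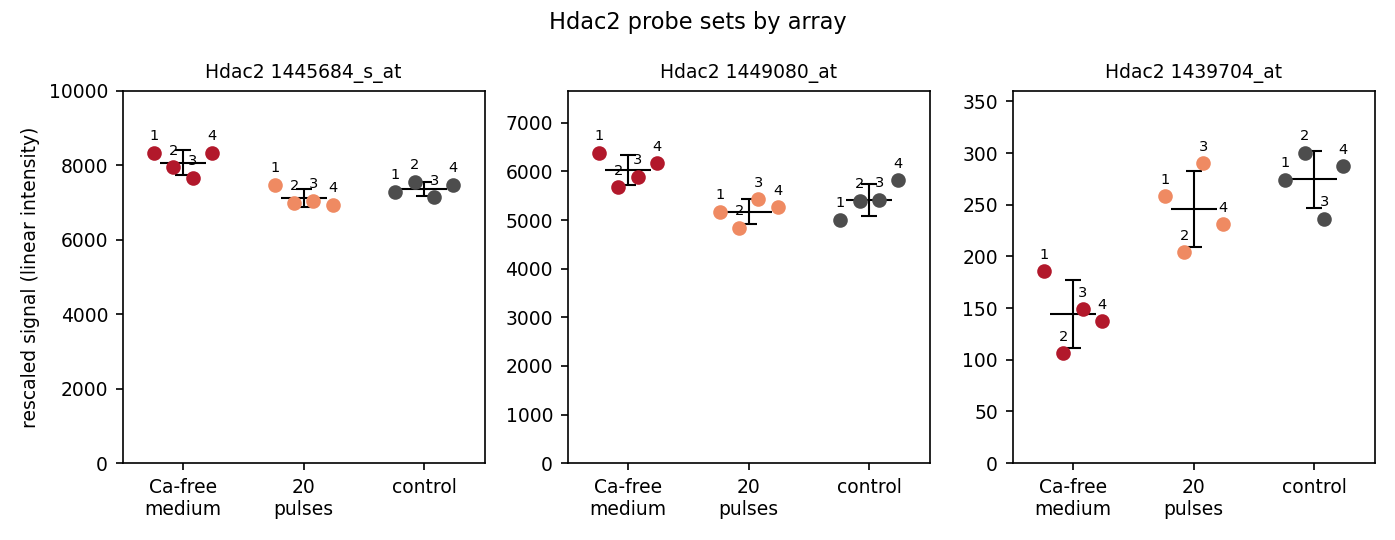
Rescaled linear signal of the 3 Hdac2 probe sets on each array, numbered by replicate, with Ca-free medium, 20 pulses and control from left to right and bars for mean ± SD. The Ca-free arrays lead on 1445684_s_at, at 7659 to 8341, and are lowest on 1439704_at, at 106 to 186.

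The Mta proteins, which hold the deacetylases in the complex, differed among themselves. Mta2 1423165_a_at read 975, 1039, 1129 and 960.2 in Ca-free medium, 913, 882, 952 and 777 after 20 pulses, and 1124, 1079, 899 and 1016 in control. Its change was 0.00 ± 0.09 in Ca-free medium over control, with an interval of -0.20 to 0.19. After 20 pulses it was -0.22 ± 0.09 (limma adjusted p = 0.262, 95% interval -0.41 to -0.02), with overlapping arrays. Mta1 1417295_at read 293, 255, 256 and 342 in Ca-free medium, 323, 292, 326 and 402 after 20 pulses, and 349, 386, 375 and 384 in control. The Ca-free arrays were all below control, at -0.36 ± 0.12, but this call was kept in 13 of 22 alternatives, and the value was 0.02 under median scaling. After 20 pulses Mta1 was at -0.15 ± 0.12 (limma adjusted p = 0.574, lower on 3 of 4 arrays than every control array).

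Mta3, a paralogue described as oestrogen-dependent in human breast cells, had probe sets on both sides. Mta3 1443350_at read 344, 285, 370.3 and 313 in Ca-free medium, 511, 399, 489 and 450 after 20 pulses, and 517, 515, 535 and 524 in control. The Ca-free arrays were lowest, the 20 pulses arrays lay in between, and no groups overlapped. The change was -0.63 ± 0.10 in Ca-free medium over control, called in 21 of 22 alternatives with the exception of median scaling, and -0.46 ± 0.10 against 20 pulses (limma adjusted p = 0.00525, lower on 4 of 4 arrays), a call that ended under median scaling and quantile normalization. After 20 pulses over control it was -0.17 ± 0.10 (limma adjusted p = 0.434, lower on 4 of 4 arrays).

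The bright probe set Mta3 1451352_s_at read 4354, 4842, 4152 and 4199.9 in Ca-free medium, 3190, 3157, 3354 and 3835 after 20 pulses, and 3366, 3951, 4630.1 and 3866 in control. It stood higher in Ca-free medium than after 20 pulses on 4 of 4 arrays, by 0.37 ± 0.09 (limma adjusted p = 0.00787), a call that ended under quantile normalization and under scaling to the hybridization controls. Against control it was at 0.16 ± 0.09, with overlapping arrays. The suffix _s_at marks probes shared among transcripts, in some cases of several genes, so these readings of Hdac2 and Mta3 may hold more than 1 product. The log2 ratios of Mta1 over Mta2 and of Mta2 over Mta3 overlapped between all groups.

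Mbd3, the subunit that sets NuRD apart from the related complex with Mbd2, was read by a single dim probe set, higher in Ca-free medium than after 20 pulses. Mbd3 1417728_at read 243, 145, 169 and 124 in Ca-free medium, 117, 80.4, 95.1 and 69.9 after 20 pulses, and 79.7, 81.9, 167 and 125 in control. Every Ca-free array was above every 20 pulses array, and control arrays 1 and 2 resembled the 20 pulses arrays while control arrays 3 and 4 resembled Ca-free ones. Mbd3 was 0.70 ± 0.23 higher in Ca-free medium than after 20 pulses (limma adjusted p = 0.0285, 4 of 4 arrays), kept in 12 of 19 alternatives. Leaving out Ca-free array 1 or 3 or 20 pulses array 2 or 4 ended this call, with estimates over the arrays left out of 0.55 to 0.82. Hybridization control scaling and either pair of Ca-free arrays alone ended it too. In Ca-free medium over control Mbd3 was not called as scaled here, but was called higher in 4 of 21 alternatives. These were quantile normalization, at 0.80, median scaling, at 0.82, the fit without control array 3, and control arrays 1 and 2 alone. The estimate as scaled here was 0.48 ± 0.23, with 0.81 against control arrays 1 and 2 alone and 0.16 against control arrays 3 and 4 alone. After 20 pulses over control Mbd3 was at -0.22 ± 0.23 (limma adjusted p = 0.686), with 0.11 and -0.55 against those control pairs.

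The histone-binding proteins Rbbp4 and Rbbp7 were read by bright probe sets that stayed close to control as scaled here. Rbbp4 1434892_x_at read 10572, 10938, 10216 and 11102 in Ca-free medium, 9713, 8628, 9085 and 9539 after 20 pulses, and 9841, 10678, 9873 and 9342 in control. It was 0.21 ± 0.05 higher in Ca-free medium than after 20 pulses (limma adjusted p = 0.0084, 4 of 4 arrays), a call that ended with Ca-free arrays 2 and 3 alone and under quantile normalization and turned to a call downward of -0.16 under scaling to the hybridization controls (limma adjusted p = 0.0149). Over control it was at 0.11 ± 0.05 in Ca-free medium and -0.10 ± 0.05 after 20 pulses (limma adjusted p = 0.351). Rbbp7 1456227_x_at averaged 13856 ± 559 in Ca-free medium, 12788 ± 538 after 20 pulses and 13842 ± 1088 in control (SD, n = 4 each), and Rbbp7 1415775_at 10925 ± 673, 9848 ± 499 and 10113 ± 566. As scaled here neither was called in any of the 3 comparisons, with changes over control of 0.00 ± 0.05 and 0.11 ± 0.06 in Ca-free medium and -0.11 ± 0.05 and -0.04 ± 0.06 after 20 pulses (limma adjusted p = 0.338 and 0.791). Median scaling called both higher in Ca-free medium than in control, at 0.42 and 0.52, and higher than after 20 pulses. Scaling to the hybridization controls called 1456227_x_at lower than control, at -0.20, and both lower than after 20 pulses. Rbbp7 1415775_at was also called higher than after 20 pulses without Ca-free array 3 or 20 pulses array 1.

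Rbbp4 and Rbbp7 are close relatives, and the suffix _x_at marks probe sets with probes that may bind other transcripts, so their readings may be shared in part. The log2 ratio of Rbbp4 over Rbbp7, from these probe sets, averaged -0.37 ± 0.03 in Ca-free medium, -0.47 ± 0.02 after 20 pulses and -0.48 ± 0.04 in control (SD, n = 4 each). It was higher on each Ca-free array than on any other array, by 0.10 over control, a comparison within arrays that scaling an array by a constant hardly alters, and no test was made of it. The shift depends on the Rbbp7 probe set used, here 1456227_x_at, which changed by 0.00 over control in Ca-free medium. Rbbp7 1415775_at changed by 0.11, as did Rbbp4 1434892_x_at. Between 20 pulses and control the ratio differed by 0.01, with overlapping arrays.

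A dimmer Rbbp4 probe set, 1454875_a_at, split within groups. It read 1054, 392, 352 and 1023 in Ca-free medium, 437, 298, 326 and 332 after 20 pulses, and 354, 333, 736 and 688 in control. Ca-free arrays 1 and 4 and control arrays 3 and 4 were the 4 highest of the 12. These arrays also had the higher Gapdh 3′ to 5′ ratios of their groups. The ratios were 5.05 and 4.73 against 3.1 and 2.89 in Ca-free medium, and 7.62 and 8.90 against 6.28 and 5.76 in control. The 20 pulses arrays went otherwise: array 4 had their highest ratio, 7.58, at a signal of 332, while array 1 read 437 at 5.77. Control arrays 1 and 2 had higher ratios than Ca-free arrays 1 and 4 but lower signals. The part of RNA quality in this pattern was not tested. Over control the change of 1454875_a_at was 0.31 ± 0.33 in Ca-free medium and -0.49 ± 0.33 after 20 pulses (limma adjusted p = 0.509). With Ca-free arrays 1 and 4 alone the change over control was 1.02, and with arrays 2 and 3 alone it was -0.39. Rbbp4 1454791_a_at, at 1471 ± 217 in Ca-free medium, 1317 ± 83.3 after 20 pulses and 1624 ± 365 in control, and Rbbp4 1456260_at, at 183 ± 31.0, 217 ± 35.2 and 166 ± 59.1 (SD, n = 4 each), were not called in any comparison as scaled here.

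**Figure D5:**
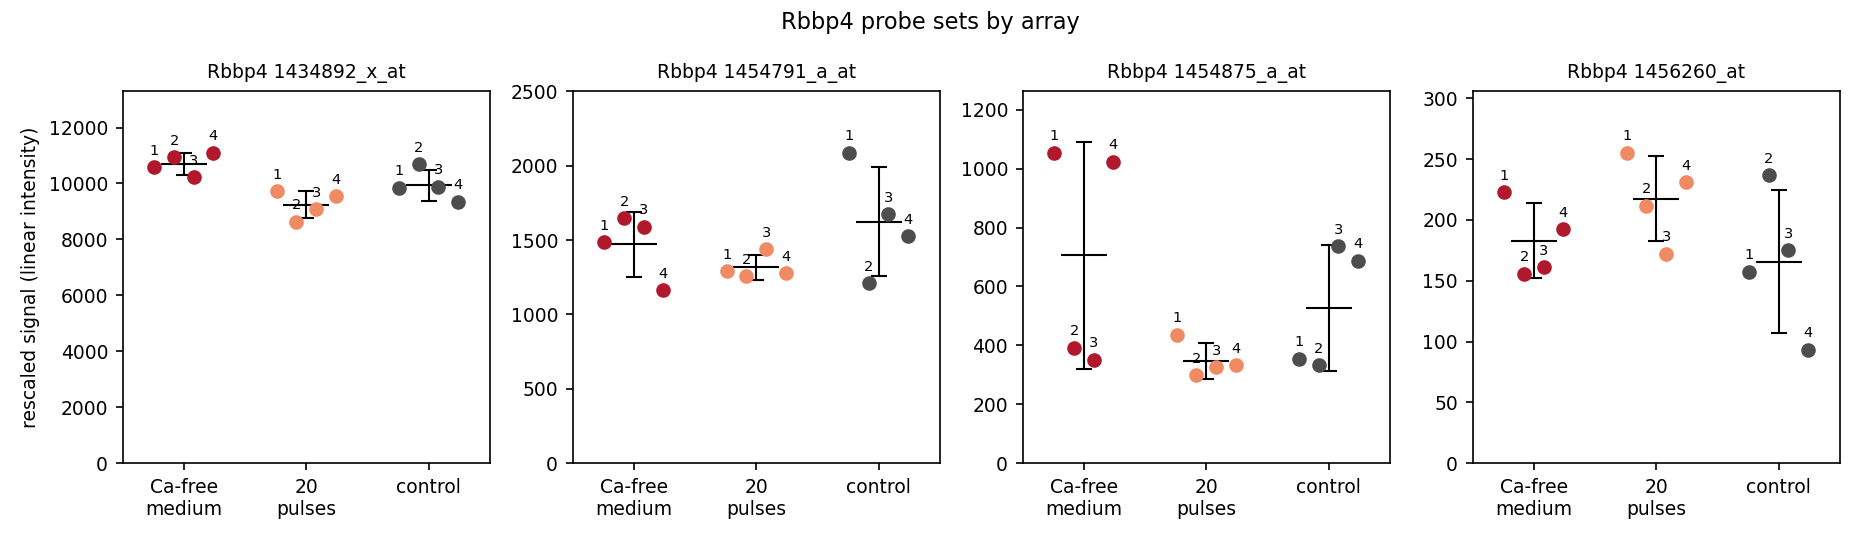
Rescaled linear signal of the 4 Rbbp4 probe sets on each array, numbered by replicate, with Ca-free medium, 20 pulses and control from left to right and bars for mean ± SD. On 1454875_a_at Ca-free arrays 1 and 4 stand at 1054 and 1023 and control arrays 3 and 4 at 736 and 688, while the other 8 arrays lie between 298 and 437.

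Gatad2a, the bridge between Mbd3 and Chd4, had 5 probe sets, and 2 of them were called lower in Ca-free medium. Gatad2a 1445239_at read 236, 275, 255 and 211 in Ca-free medium, 416, 349, 401 and 343 after 20 pulses, and 325, 329, 312 and 350.3 in control. All Ca-free arrays were below all others. It stood at -0.39 ± 0.10 over control, at -0.57 ± 0.10 against 20 pulses (limma adjusted p = 0.00227, lower on 4 of 4 arrays) and, after 20 pulses over control, at 0.18 ± 0.10 (limma adjusted p = 0.435). Gatad2a 1451198_at read 185, 185, 153 and 188 in Ca-free medium, 269.9, 228, 223 and 266 after 20 pulses, and 238, 342, 232 and 252 in control. It was again lowest in Ca-free medium, by -0.50 ± 0.13 over control and -0.41 ± 0.13 against 20 pulses (limma adjusted p = 0.028, 4 of 4 arrays), the second kept in 12 of 19 alternatives and ended without Ca-free array 3 or without 20 pulses array 1 or 4. Both probe sets lost their calls against control and against 20 pulses under quantile normalization and median scaling.

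The other 3 Gatad2a probe sets were not called in any comparison as scaled here. Gatad2a 1451197_s_at averaged 2044 ± 208 in Ca-free medium, 1934 ± 70.5 after 20 pulses and 2099.9 ± 96.8 in control, and 1423992_at 1595 ± 55.4, 1739.9 ± 66.6 and 1782 ± 143 (SD, n = 4 each). The dim 1455505_at averaged 142 ± 20.0, 118 ± 23.2 and 132 ± 45.3 in the same order. The brightest Gatad2a probe sets were thus within 0.16 of control on the log2 scale in both treatments while 2 of the 3 dim ones were lower in Ca-free medium. Under the filter stood Mta1 1440113_at, with a mean of 44.4 over all arrays, and Mta3 1421402_at, with a mean of 63.8. Mta3 1421402_at read 78.5, 56.6, 19.0 and 56.4 in Ca-free medium, 79.2, 80.2, 93.2 and 155 after 20 pulses, and 42.1, 53.5, 24.1 and 28.4 in control. Without the filter its change after 20 pulses was 0.94 ± 0.25 (limma adjusted p = 0.119, higher on 4 of 4 arrays than every control array).

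The probe sets most like Chd4 were sought among 22988 tested probe sets of single genes, by Pearson's r with Chd4 1438476_a_at over the 12 arrays. The highest were Hmga2 at 0.958, Tram1 at 0.953, Kat2b at 0.952, Kdsr at 0.948 and Tmx3 at 0.940. Hmga2, an architectural chromatin protein of embryonic cells, averaged 6316 in Ca-free medium, 5305 after 20 pulses and 4537 in control, and Kat2b, a histone acetyltransferase, 1926, 1757 and 1484. The arrays share the same 3 groups, so r follows the group means. Among the partners r with this Chd4 probe set ran from -0.70 for Mta3 1443350_at to 0.55 for Hdac2 1445684_s_at, and within Chd4 it was 0.88 for 1436343_at and -0.04 for 1451295_a_at.

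Other genes around the complex were listed by membership, 101 genes in 9 lists, of which 95 had a probe set of their own. Their counts stand beside a background of 10.6% of all tested probe sets called higher and 29.7% lower in Ca-free medium, and 1.1% and 0.374% after 20 pulses. They also turned with the scaling: with equal medians each of the 9 lists had more calls upward than downward in Ca-free medium, and with scaling to the hybridization controls each had more downward. Among the other NuRD subunits and paralogues, 0 of 11 probe sets were called higher and 4 lower in Ca-free medium than in control, and 0 and 1 after 20 pulses. The ATPase paralogue Chd5 averaged 178 ± 16.9 in Ca-free medium, against 301 ± 22.9 in control (SD over 4 arrays; log2 change -0.66 ± 0.12), and Gatad2b, the paralogue of Gatad2a, 283 ± 36.5 and 436 ± 66.8 on 1432979_at (-0.57 ± 0.12), with 1 further Gatad2b probe set lower and 3 not called. After 20 pulses Cdk2ap1, a small NuRD subunit, fell to 4392 ± 231 against 5508 ± 496 in control on 1426885_a_at (log2 change -0.32 ± 0.06, limma adjusted p = 0.0262), with neither of its other 2 probe sets called and with no call downward in this list under median or hybridization control scaling. Of the 20 probe sets of factors that recruit NuRD, 2 were called higher and 4 lower in Ca-free medium, and 0 either way after 20 pulses by limma. The zinc-finger factor Sall4, which binds NuRD in embryonic stem cells, averaged 5964 ± 215 in Ca-free medium and 4921 ± 446 in control (0.28 ± 0.06; its 1 other probe set was not called), and Zfp687, whose human counterpart joins ZMYND8 in a module bound to NuRD, 445 ± 38.3 and 602 ± 43.9 (-0.41 ± 0.11).

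Other histone deacetylase complexes, some of which share subunits with NuRD, had 1 of 58 probe sets called after 20 pulses, or 1.72%, which is near the background. The Sin3 complex had 2 of 27 probe sets higher and 2 lower in Ca-free medium than in control, led by the subunit Brms1 at -0.52 ± 0.10 and the scaffold Sin3b at 0.25 ± 0.06 on 1434637_x_at, with none of its 4 other probe sets called. The CoREST complex had 1 of 16 higher and 5 lower, led by the histone reader Phf21a at -0.74 ± 0.15 and the scaffold Rcor2 at -0.61 ± 0.12. The NCoR and MiDAC complexes had 3 of 15 higher and 1 lower, led by the NCoR subunit Tbl1xr1 at 0.39 ± 0.10 and the MiDAC subunit Dnttip1 at 0.24 ± 0.07, with none of the 3 other probe sets of Tbl1xr1 and not the 1 other of Dnttip1 called. After 20 pulses Sin3 and CoREST had 0 calls, and NCoR and MiDAC had 1, the MiDAC scaffold Mideas 1444107_at, which rose to 1036 ± 46.6 against 787 ± 34.3 in control (SD, n = 4 each; 0.38 ± 0.08, limma adjusted p = 0.0355), with none of its 3 other probe sets called.

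Among the other ATP-driven remodellers, the ISWI list had 12 of 30 probe sets called higher and 1 lower in Ca-free medium, with a median change of 0.15. These counts were 11 and 0 after quantile normalization, 20 and 0 with equal medians, and 6 and 7 with scaling to the hybridization controls. Its ATPase Smarca5 averaged 6720 ± 500.3 in Ca-free medium and 4737 ± 163 in control on 1424206_at (0.50 ± 0.07), with 1 of its 3 other probe sets also called higher, and the chromatin factor Baz2a 612 ± 46.1 and 407 ± 36.9 on 1427209_at (0.55 ± 0.09), with neither of its others called. After 20 pulses 3 of the 30 were called higher and 0 lower, among them Baz2a 1427209_at at 598 ± 11.8 against 407 ± 36.9 in control (0.52 ± 0.09, limma adjusted p = 0.0105) and Smarca5 1424207_at at 3643 ± 230 against 2617 ± 501 (0.49 ± 0.10, limma adjusted p = 0.0324). The BAF list had 6 of 36 higher and 3 lower in Ca-free medium, led by the subunit Smarce1 at 0.63 ± 0.10, whose 1 other probe set was also called higher, and the ATPase Smarca4 at 0.43 ± 0.07, whose 1 other was not called. After 20 pulses it had 1 higher, the bromodomain protein Pbrm1 1427266_at at 0.41 ± 0.09 (limma adjusted p = 0.0305), with neither of its other 2 called and with 0 calls in the list under median scaling. The INO80 and SRCAP list had 1 of 25 higher and 5 lower, led by the ATPase Ep400 at -0.48 ± 0.07, with none of its 4 other probe sets called, and the deubiquitinase Uchl5 at 0.37 ± 0.06, whose 1 other was not called. It had 0 calls after 20 pulses. The other CHD remodellers, with Hells and Atrx, had 4 of 25 higher and 5 lower in Ca-free medium and 1 higher after 20 pulses, Atrx 1433537_at at 0.40 ± 0.08 (limma adjusted p = 0.0282), with none of its 6 other probe sets called. In Ca-free medium Atrx 1420945_at stood at -0.45 ± 0.10, while of its 6 others 3 were called higher and 1 lower, and Chd1 1420990_at at -0.39 ± 0.12, while of its 3 others 1 was called higher and 0 lower. No list was tested as a whole.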

How the data were processed

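RNA of 12 blastocyst arrays was analysed. The deposited values are linear intensity, made with MAS5 per the submitters' processing notes, whose version the sources do not give. The authors had scaled every array to a 2% trimmed mean of 150.001 without log transformation. Here each array was rescaled to a trimmed mean of 500 (a factor of 3.33), 32 was added and log2 taken, and the 64 array controls were left out. Probe sets with a mean of at least 100 over the 12 arrays (27808, of 13599 genes) were fitted with limma 3.58.1 in R 4.3.3 (lmFit and eBayes with an intensity trend, 1 model over the 12 arrays), and calls are Benjamini-Hochberg adjusted p under 0.05 over all of them. Each probe set was kept on its own and named through the platform's table, whose build the sources do not give. Detection calls and scan dates were not used here.

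The members and lists were chosen with earlier results of these data known. All 10 genes are named, and of each other list the 2 genes with the smallest p among calls in each treatment over control, the 5 probe sets most like Chd4, and 4 paralogue pairs. Promoter windows came from RefSeq (GRCm38.p6). The fit was also run on simulated data with independent noise and a small share of changed probe sets. Such data hold no shift with scaling or signal, so that run cannot speak to either. Alternatives were quantile normalization, median and hybridization control scaling, 1 or 100 added before log2, no filter or a minimum of 300, no intensity trend, a replicate block, only the 8 arrays compared, pairs of control or Ca-free arrays, and each array left out.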

Additional observations from a re-analysis of the deposited data

Results flagged for a closer look

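Of 75 groups of 4 arrays looked at, 2 held an array far from the other 3, where chance gives about 1 in 20. Gatad2a 1451198_at read 153 on Ca-free array 3, below 185 to 188 on the other Ca-free arrays, and Gatad2a 1455505_at read 172 on the same array, above 131 to 136 on the others.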

How the results depend on the processing

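Over 26 alternative settings, 1275 of 1408 values of single probe sets kept their direction and side of the threshold, 79 lost a call, 36 gained one and 18 reversed. No partner was called after 20 pulses over control under any alternative run.

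Scaling mattered most. Counts of members include the Chd4 probe sets, whose part in them is a description. Quantile normalization gave 5497 calls in Ca-free medium over control, 2774 of them lower, with 3 of the 23 member probe sets lower. Against 20 pulses it gave 2789 calls, 1405 higher and 1384 lower, with 2 members higher and 0 lower. Median scaling gave 15 members higher and 1 lower over control, beside 10234 and 1535 of all tested probe sets. It gave 16 and 0 against 20 pulses, beside 8751 and 985. It reversed, over control, Chd4 1451295_a_at (0.36), Mta1 (0.018), Mta2 (0.40), Hdac1 (0.39), Gatad2a 1451197_s_at (0.36) and Gatad2a 1423992_at (0.25), and, against 20 pulses, Chd4 1451295_a_at (0.33) and Gatad2a 1423992_at (0.25). Hybridization control scaling gave 2 members higher and 9 lower over control, beside 772 and 13655 of all tested probe sets. It gave 0 and 14 against 20 pulses, beside 94 and 19709, with 2156 calls after 20 pulses over control and 19803 between the treatments. It reversed, over control, Hdac2 1445684_s_at (-0.075), Hdac2 1449080_at (-0.050) and Rbbp7 1456227_x_at (-0.20), and, against 20 pulses, Hdac1 (-0.29), Hdac2 1445684_s_at (-0.19), Hdac2 1449080_at (-0.15), Rbbp4 1434892_x_at (-0.16), Rbbp7 1456227_x_at (-0.25), Rbbp7 1415775_at (-0.22) and Gatad2a 1451197_s_at (-0.29).

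Members higher in Ca-free medium over control numbered 2, in place of 4, with no filter, no intensity trend, the replicate block, only the 8 arrays compared, control arrays 3 and 4 only, or Ca-free arrays 2 and 3 only. All probe sets called higher under these settings numbered 2046 to 2875, in place of 2944. A minimum of 300, which tests fewer probe sets, gave 5658 calls and 3 members lower in Ca-free medium over control, 1 member higher after 20 pulses, and 5080 calls and 2 members lower between the treatments. After 20 pulses over control, 155 calls were made with no intensity trend, 227 with the replicate block, 201 against control arrays 1 and 2, with 1 member higher, and 786 against control arrays 3 and 4, in place of 411. Control arrays 3 and 4 alone gave 6520 calls and 2 members lower in Ca-free medium, Ca-free arrays 1 and 4 alone 3 members lower, and Ca-free arrays 2 and 3 alone 5890 calls and 2 members higher against 20 pulses. With group means removed, same-numbered arrays of different groups correlated at a mean of 0.0156 (-0.058 to 0.101), and other-numbered ones at -0.0052 (-0.123 to 0.0676). Of the arrays, 7 of 12 correlated best with their own number. Whether the numbers pair the arrays is not stated by the labels and was not settled by these values. The main fit did not pair them, and the replicate block is the alternative that does. Leaving out each array in turn gave 2 to 4 members higher in Ca-free medium, 110 to 379 calls and 1 to 2 members higher after 20 pulses, and a 3′ to 5′ difference of -0.64 to -0.43 in Ca-free medium. The exact permutation p of that difference stayed at 0.0286 without control array 1, 2 or 3. In the other 5 of these 8 fits it rose to between 0.0857 and 0.143. The single member left after 20 pulses without 20 pulses array 3 or control array 3 was Chd4 1436343_at. The cause of these differences was not tested beyond what each setting changes by construction. Signals near 100 limit what the dim probe sets can show.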
